A study of Mus musculus with 6 samples.

Results

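The genes described here write, copy, protect and erase 5-methylcytosine in DNA. They are 4 genes of the Dnmt family, both Uhrf genes, 3 Tet genes and Dppa3, chosen as the probe sets that the platform annotation gives to exactly 1 of these names. All 10 genes were found, on 14 of the 35556 probe sets, out of 19938 genes with a probe set of their own. Their RNA was measured in fully-grown mouse oocytes at the germinal-vesicle stage. Transcription is mostly silenced by this stage, but whether these oocytes still transcribed was not measured. There were 3 samples from females homozygous for Marf1 ENU, an allele made with the mutagen N-ethyl-N-nitrosourea, and 3 from Marf1+/+ (WT) females, each on 1 array. Strain is given as C57BL/6J;C3HeB/FeJ for both genotypes. All females received 5 IU of eCG, a gonadotropin that makes follicles grow, at 21 days of age, and oocytes were collected 46 hours later, at 23 days, and freed of cumulus cells. Marf1 encodes an oocyte RNA-binding protein with a ribonuclease domain that female mice need for meiosis and fertility. The labels do not say how many animals or oocytes stand behind a sample, so a p-value reflects how far these samples scatter, and part of that scatter may be technical.

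DNA methylation in oocytes is laid down during growth, when Dnmt3a with its partner Dnmt3l methylates mainly transcribed gene bodies, including the imprints passed on by the mother. Dnmt1 copies methylation onto new DNA strands and is brought to them by Uhrf1, a protein that recognises hemimethylated DNA. Tet enzymes oxidise 5-methylcytosine as a step towards its removal, and Dppa3 (Stella) keeps Uhrf1 out of the oocyte nucleus and shields the maternal genome from Tet3 after fertilization. The arrays measured RNA only, and DNA methylation itself was not measured.

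The values are log2 expression after RMA, which forces the arrays to a common scale, so a level says where a gene stands among all genes of its array. Levels of different genes come from different probes, so a difference between genes within an array is compared across genotypes only. Each sample is bulk RNA, so fewer cells holding a transcript and less of it per cell cannot be told apart. As a mark of a dim signal, 4.51 is used, the 95th percentile of the mean log2 level of 1190 olfactory and vomeronasal receptor genes, called the receptor-gene level. Median log2 expression per array was 4.56 to 4.76 in the mutant and 4.60 to 4.67 in wild type. Mutant replicate 3 stood apart, correlating across probe sets at 0.970 to 0.973 with the other mutants, against 0.985 between those. Its SD over probe sets was 2.04, against 2.20 and 2.19 for mutant replicates 1 and 2. Its array weight in limma was 0.33, against 1.44 and 1.17 for those. It lay below their mean in 8 of the 10 genes described here, by up to 0.49. The share of all genes that lay below in this way was not counted. Marf1 averaged 6.18 ± 0.21 in the mutant and 9.23 ± 0.08 in wild type (log2, SD, n = 3 each), where the position of its probes relative to the mutation was not tested. The 13 oocyte markers were bright in both genotypes, with a mean log2 level of 10.13 to 10.43 per mutant array and 10.35 to 10.55 per wild-type array, and 0 of them passed the threshold (limma, 2 at unadjusted p under 0.05).

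Of the 10 genes, 2 were higher in the mutant past the threshold and 0 were lower (limma, Benjamini-Hochberg adjusted p under 0.05 over all probe sets). Over all genes 6.40% passed as higher and 4.04% as lower. Uhrf2 and Tet2 were the genes that rose. At an unadjusted p under 0.05 there were 2 higher and 4 lower, where all genes gave 11.0% and 13.5%. The median log2 fold change was -0.21 over the 10 genes and -0.04 over all genes. With mutant replicate 3 left out, Uhrf2 and Tet2 again passed as higher and 0 of the 10 as lower, while 10.2% of all genes passed in either direction.

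The promoter windows of Uhrf2 and Tet2 are shown because these genes rose, and that of the most upstream listed Dnmt1 start because it holds the fewest CpG sites of the set. Each runs from 250 bases before to 50 bases after a RefSeq transcription start in GRCm38.p6, 5′ to 3′ on the gene's strand. The capitals mark CpG, the dinucleotide that the Dnmt enzymes methylate.
Uhrf2: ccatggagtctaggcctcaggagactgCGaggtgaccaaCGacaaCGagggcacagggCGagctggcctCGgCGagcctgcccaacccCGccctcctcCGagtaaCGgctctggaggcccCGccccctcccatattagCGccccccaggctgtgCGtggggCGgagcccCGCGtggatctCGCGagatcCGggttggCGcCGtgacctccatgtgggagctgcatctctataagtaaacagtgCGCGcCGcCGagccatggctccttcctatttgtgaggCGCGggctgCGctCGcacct
Tet2: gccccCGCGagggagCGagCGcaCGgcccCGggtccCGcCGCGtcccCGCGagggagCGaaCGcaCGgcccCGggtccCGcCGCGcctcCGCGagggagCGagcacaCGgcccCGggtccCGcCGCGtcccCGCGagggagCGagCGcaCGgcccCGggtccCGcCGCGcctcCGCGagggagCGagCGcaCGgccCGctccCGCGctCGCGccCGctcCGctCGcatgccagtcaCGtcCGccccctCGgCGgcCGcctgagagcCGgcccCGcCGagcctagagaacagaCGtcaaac
Dnmt1: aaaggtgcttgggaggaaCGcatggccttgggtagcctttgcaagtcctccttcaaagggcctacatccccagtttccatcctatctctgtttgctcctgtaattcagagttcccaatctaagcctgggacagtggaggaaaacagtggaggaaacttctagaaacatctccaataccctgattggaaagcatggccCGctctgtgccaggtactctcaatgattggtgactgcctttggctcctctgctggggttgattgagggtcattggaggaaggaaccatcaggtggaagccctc
The Uhrf2 window lies at chr19:30030263-30030562 on the plus strand, the Tet2 window at chr3:133544341-133544640 on the minus strand and the Dnmt1 window at chr9:20959839-20960138 on the minus strand. They hold 28, 57 and 2 CpG sites. The median over 32851 windows of the same length was 7 (quartiles 3 and 20), which places Tet2 above 99.8% of windows, Uhrf2 above 85.8% and this Dnmt1 window above 14.1%.

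RefSeq windows were matched for 9 of the 10 genes, 16 windows in all. The other Dnmt1 windows hold 12 and 33 CpG sites, and those of Dnmt3a 46, 47 and 18. The 3 Dnmt3l windows hold 6, 4 and 3 CpG sites, fewer than the 30 of Dnmt3b. Uhrf1 has windows with 12 and 33, Tet1 1 with 17 and Tet3 1 with 22. CCAAT, searched on both strands, occurs 0 times in the Uhrf2 and Tet2 windows and is in 37.4% of all windows. It also occurs 0 times in every window of Dnmt3a, Dnmt3b, Dnmt3l and Tet1, genes that did not pass. The Dnmt1 window shown holds it 5 times and the other Dnmt1 windows 0 and 3 times. Uhrf1 windows hold it 3 and 2 times and that of Tet3 1 time. GGGCGG, the GC box, occurs 3 times in Uhrf2, 1 time in Tet2, and in 35.7% of all windows. Genes that did not pass hold it too, with 6, 6 and 2 in the Dnmt3a windows and 4 in Dnmt3b. The Dnmt1 windows hold 0, 0 and 2, those of Dnmt3l 1, 2 and 0, and those of Uhrf1 1 and 3. Tet1 holds 1 and Tet3 2. TATAAA is in 0 of the 16 windows, where 13.6% of all windows hold it. TAATTG, an element bound by the oocyte factor Nobox, is also in 0 of the 16, where 8.0% of all windows hold it. Which start the oocyte uses was not tested, and the rise of Uhrf2 and Tet2 is not tied to these letters by any measurement here.

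Uhrf2 (probe set 10462454, gene at chr19:30030430-30093726 in GRCm38.p6) encodes a RING-finger ubiquitin ligase that binds modified cytosine and, unlike its relative Uhrf1, does not replace it in maintenance methylation. Its log2 expression was 8.71, 8.63 and 8.80 in the mutant samples, against 4.34, 4.59 and 4.01 in the wild-type samples. All mutant values lay above all wild-type values, and the wild-type mean lay below the receptor-gene level. The log2 fold change was 4.40 (SE 0.18, 95% interval 3.99 to 4.81, limma adjusted p = 5.63e-05), a 21.1-fold rise that may be a lower bound because of the dim wild-type signal. It passed in 13 alternative fits, with log2 fold changes of 4.25 to 4.54. The other alternative kept probe sets with a mean above 4.64, a level that Uhrf2 reached only through the mutant, so it is not counted for this gene.

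Uhrf1 (probe set 10446074, chr17:56303337-56323486) encodes the protein that carries Dnmt1 to replicated DNA. It read 9.58, 9.70 and 9.26 in the mutant, against 10.13, 9.73 and 10.08 in wild type. The groups did not overlap, but mutant replicate 2 and wild-type replicate 2 lay 0.03 apart, within the spread of either group. Its log2 fold change of -0.47 (SE 0.18, limma adjusted p = 0.195) did not pass the threshold.

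The difference between both Uhrf genes within an array is given as a description, since Uhrf2 was already known to rise. Uhrf2 minus Uhrf1 was -0.87, -1.07 and -0.46 on the mutant arrays, against -5.79, -5.14 and -6.07 on the wild-type arrays. The mutant values lay above the wild-type values, and the genotype difference of 4.87 may be a lower bound, as for Uhrf2 itself.

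**Figure D1:**
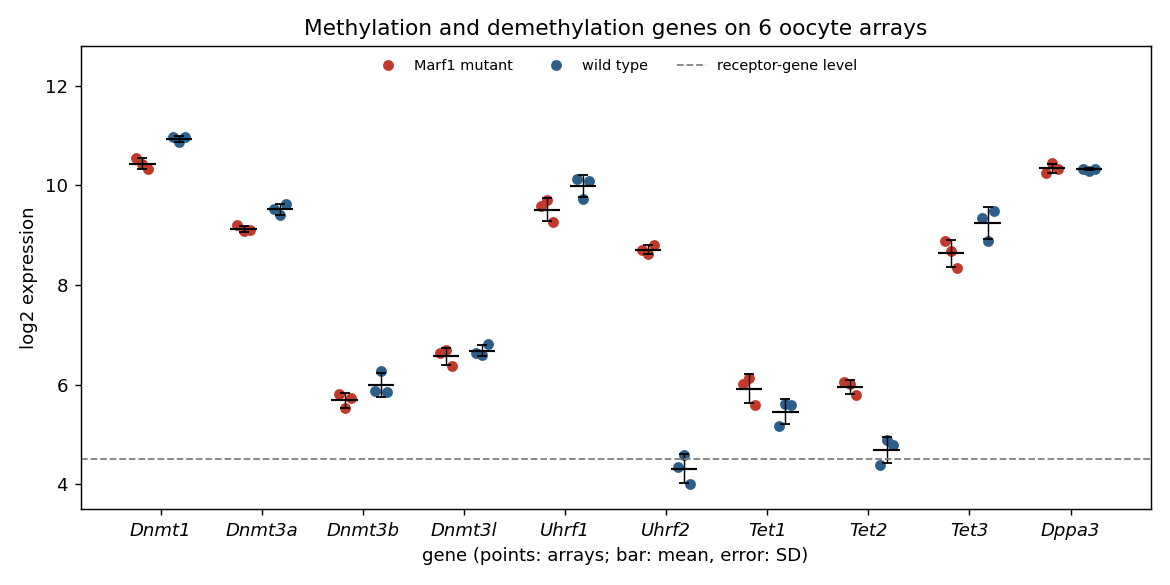
Log2 expression (vertical axis) of the 10 genes on each array, mutant left of wild type, with bars for the mean and error bars for the SD of 3 samples; the dashed line is the receptor-gene level of 4.51. Uhrf2 lies at 8.63 to 8.80 in the mutant, against 4.01 to 4.59 in wild type, and Tet2 is the other gene whose mutant values all lie above wild type.

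Among the erasers, Tet2 (probe set 10502284, chr3:133463677-133545136) rose. Its protein is a 5-methylcytosine dioxygenase best known from blood stem cells, and it lacks the DNA-binding CXXC domain found in Tet1 and Tet3. Log2 expression was 6.05, 6.01 and 5.79 in the mutant, against 4.39, 4.88 and 4.79 in wild type. All mutant values lay above all wild-type values, whose mean of 4.69 was close to the receptor-gene level. The log2 fold change was 1.26 (SE 0.17, 95% interval 0.86 to 1.67, limma adjusted p = 0.00473), or 2.40-fold. It passed in each of the 14 alternative fits, with adjusted p-values of 0.00164 to 0.0251.

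Tet3 (probe set 10545682, chr6:83362373-83457208), the enzyme that oxidises the paternal genome of the zygote, read 8.88, 8.69 and 8.34 in the mutant, against 9.35, 8.88 and 9.49 in wild type. Mutant replicate 1 equalled wild-type replicate 2, so the groups touched. The log2 fold change was -0.60 (SE 0.21, 95% interval -1.10 to -0.11, limma adjusted p = 0.157). A second Tet3 probe set, 10545692, gave -0.31 (adjusted p = 0.530) with overlapping groups. Mutant replicate 3 was the lowest array on both sets, 0.45 and 0.63 below the mean of the other mutants. Neither set passed the threshold.

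The 3 probe sets of Tet1, a dioxygenase known for work in embryonic stem cells and for meiotic gene control in germ cells (chr10:62804570-62887469), disagreed in direction. The brightest, 10369688, read 6.02, 6.14 and 5.59 in the mutant, against 5.18, 5.62 and 5.59 in wild type, a log2 fold change of 0.45 (SE 0.20, limma adjusted p = 0.265). Sets 10369690 and 10369702 gave -0.20 and -0.35 (adjusted p = 0.488 and 0.219), with all mutant values below all wild-type values. Their mutant means of 4.69 and 4.58 lay just above the receptor-gene level. None of the 3 passed, and the average of the sets had a log2 fold change of -0.03.

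Within an array, Tet2 minus Tet3 was -2.83, -2.68 and -2.55 in the mutant, against -4.96, -4.00 and -4.70 in wild type. The genotype difference was 1.87. Tet2 minus the brightest Tet1 set was 0.03, -0.13 and 0.20 in the mutant, against -0.79, -0.74 and -0.80 in wild type, a genotype difference of 0.81. In both pairs the groups were apart. They are descriptions too, since Tet2 was known to rise. Both genotype differences depend on the probe set used. The other Tet1 sets had log2 fold changes of -0.20 and -0.35, and the second Tet3 set had -0.31.

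**Figure D2:**
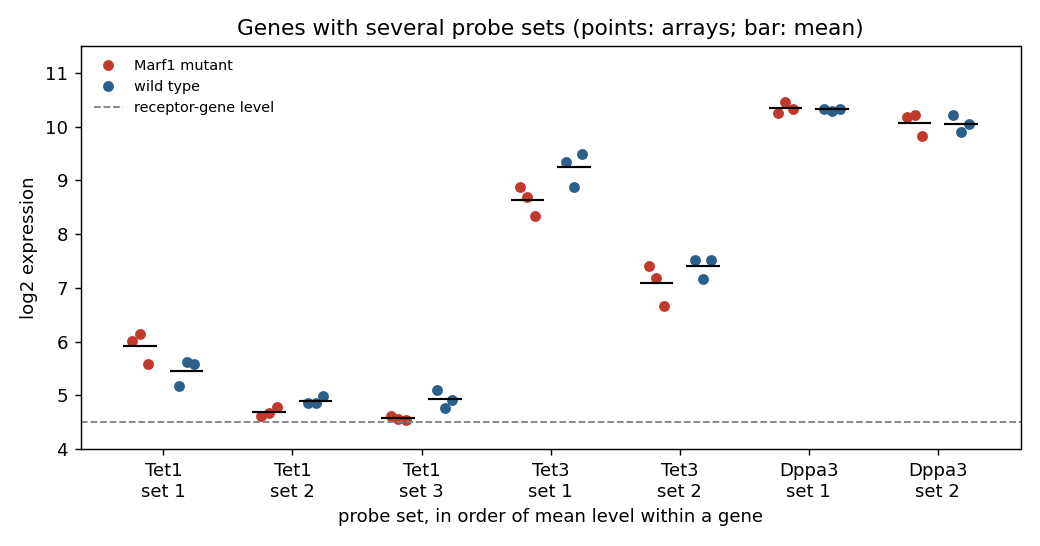
Log2 expression (vertical axis) of each probe set of Tet1, Tet3 and Dppa3, the genes with more than 1, mutant left of wild type, with a bar for the mean of 3 samples and the receptor-gene level dashed. The brightest Tet1 set is higher in the mutant mean (5.92 against 5.46 in wild type), while the other Tet1 sets are lower.

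Of the methyltransferase genes, 0 passed the threshold, and the measured differences were small. Dnmt1 (probe set 10591369, chr9:20907206-20959888), the maintenance enzyme that oocytes store for the embryo, read 10.56, 10.42 and 10.33 in the mutant, against 10.98, 10.87 and 10.98 in wild type. All mutant values lay below all wild-type values. The log2 fold change was -0.51 (SE 0.13, 95% interval -0.82 to -0.19, limma adjusted p = 0.0659). The call depends on the fit: the adjusted p was 0.0354 among probe sets above the median level, where 23.7% of genes passed, and 0.0272 with an intensity trend and robust prior, where 10.7% passed, and 0.0503 to 0.208 in the other 12 alternatives.

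Dnmt3a (probe set 10394209, chr12:3801559-3914443), the enzyme that sets oocyte methylation, read 9.20, 9.09 and 9.10 in the mutant, against 9.53, 9.41 and 9.63 in wild type. The groups were apart, with a log2 fold change of -0.39 (SE 0.13, 95% interval -0.70 to -0.08, limma adjusted p = 0.139). Dnmt3b (probe set 10477325, chr2:153649411-153687730), a de novo enzyme that oocytes can do without, read 5.82, 5.53 and 5.73 in the mutant, against 5.88, 6.28 and 5.85 in wild type. These groups were 0.03 apart at their nearest values, and the log2 fold change of -0.31 (adjusted p = 0.388) did not pass.

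Dnmt3l (probe set 10364346, chr10:78042287-78063622) has no enzymatic activity of its own and is required with Dnmt3a for maternal imprints. It read 6.63, 6.70 and 6.37 in the mutant, against 6.63, 6.60 and 6.81 in wild type, with overlapping groups. That is a log2 fold change of -0.11 (95% interval -0.46 to 0.24, limma adjusted p = 0.786). Dppa3 (probe set 10541515, chr6:122626424-122630271) read 10.25, 10.45 and 10.32 in the mutant, against 10.33, 10.29 and 10.33 in wild type. A log2 fold change of 0.02 had a 95% interval of -0.28 to 0.32 (adjusted p = 0.961), and a second set, 10604135, also gave 0.02 (interval -0.36 to 0.41). Differences as large as those of Uhrf2 or Tet2 lie outside the intervals of Dnmt3l and Dppa3. Whether the second Dppa3 set reads the gene or a near-identical copy was not tested.

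Groups did not overlap in 2 of the 10 genes with the mutant above and in 4 with the mutant below (Dnmt1, Dnmt3a, Dnmt3b and Uhrf1). Over all genes the shares were 12.9% and 17.7%.

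**Figure D3:**
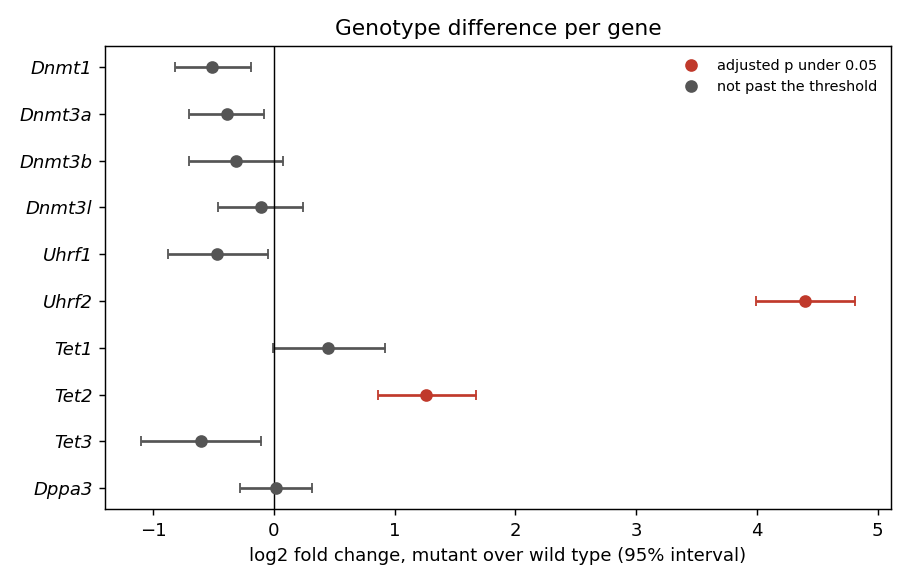
Log2 fold change, mutant over wild type (horizontal axis), with its 95% interval from limma for each of the 10 genes; red marks an adjusted p under 0.05. Uhrf2 at 4.40 and Tet2 at 1.26 lie to the right, and the 4 Dnmt genes, Uhrf1 and Tet3 have values of -0.60 to -0.11.

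The genes whose profile over the 6 arrays was nearest to that of Uhrf2, after each gene's mean was subtracted, were Polr3e (root mean square distance 0.13 on the log2 scale), Jade3 (0.15) and Ppp2cb (0.16). Polr3e encodes an RNA polymerase III subunit, Jade3 a partner of histone acetyltransferases and Ppp2cb a catalytic subunit of protein phosphatase 2A. Their log2 fold changes were 4.22, 4.29 and 4.46. The distance is a description of profiles that share arrays and genotype groups.

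Around these 10 genes, 80 of 87 listed genes were measured, and the others are not analysed here. The lists cover methyl donor supply, targeting, maintenance, reading and removal of methylation. They also hold RNA cytosine methyltransferases and germline genes methylated in somatic tissues, which are not DNA methylation machinery. Of the 80, 6 rose and 2 fell, a share near the 10.4% of all genes called in either direction. At an unadjusted p under 0.05, 14 were higher and 10 lower, and their median log2 fold change was -0.03. Cyclic loess normalization gave 9 higher and 0 lower, and array weights 9 higher and 3 lower. Leaving out mutant replicate 3 gave 11 higher and 2 lower, and leaving out any other array gave 3 or 4 in all, so the count rests on which samples are kept. Of all genes, 5.14% to 6.34% passed in those 5 fits.

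Among 10 genes listed under partners and cofactors of the Tet enzymes, Nlrp14 included, 3 rose, 0 fell and 7 did not pass. Their median log2 fold change was 0.00, where all genes had -0.04. Nlrp14, whose place among Tet partners was not tested, differed by -0.15 on the log2 scale (limma adjusted p = 0.744). For this list and the following ones, 6.40% of all genes passed as higher and 4.04% as lower. The lists were chosen with earlier results of these data known. Ogt, the O-GlcNAc transferase that binds Tet proteins, read 9.52, 9.26 and 9.21 in the mutant, against 8.38, 8.18 and 8.17 in wild type. All mutant values lay above wild type, with a log2 fold change of 1.09 (SE 0.15, limma adjusted p = 0.00467). Dcaf1, the substrate receptor of the CRL4 ubiquitin ligase that modifies Tet proteins in oocytes, read 9.86, 9.74 and 9.68 in the mutant, against 8.80, 9.02 and 8.85 in wild type (log2 fold change 0.87, adjusted p = 0.00880).

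Cul4a, a scaffold of that ligase, read 6.60, 6.26 and 6.17 in the mutant, against 5.39, 5.24 and 4.84 in wild type (log2 fold change 1.19, limma adjusted p = 0.0106). Ogt, Dcaf1 and Cul4a passed in all 6 fits that left out 1 array. Ddb1, the adaptor of the same ligase, differed by -0.47 on the log2 scale (adjusted p = 0.117) and the other scaffold, Cul4b, -0.05 (adjusted p = 0.908). Idh1, which makes the Tet cofactor 2-oxoglutarate, had 0.67 (adjusted p = 0.0776).

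Among 14 genes that guide methylation through chromatin, 2 rose, 0 fell and 12 did not pass (median log2 fold change 0.08). Kdm1b, the histone H3K4 demethylase that oocytes need to methylate several imprinted loci, averaged 8.95 ± 0.19 in the mutant and 8.21 ± 0.11 in wild type (SD, n = 3 each; log2 fold change 0.74, limma adjusted p = 0.0273). Ctcf, an insulator protein that binds unmethylated imprint regions, averaged 9.45 ± 0.10 in the mutant and 8.90 ± 0.05 in wild type (log2 fold change 0.55, adjusted p = 0.0454). Both calls held only in the fit without mutant replicate 3, of the 6 that left out 1 array, and were lost in the other 5 (adjusted p up to 0.106 for Kdm1b and 0.161 for Ctcf). Without mutant replicate 3, Setd2, an H3K36 methyltransferase, also passed as higher. Zfp57, which protects imprints, differed by -0.09 on the log2 scale (adjusted p = 0.816).

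In the supply of methyl groups, 0 of 10 genes rose and 1 fell (median log2 fold change -0.18). Mthfd1, a folate enzyme, averaged 6.33 ± 0.09 in the mutant and 6.95 ± 0.02 in wild type (SD, n = 3 each; log2 fold change -0.62, limma adjusted p = 0.0271). That call was also lost without any array other than mutant replicate 3, and with cyclic loess normalization (adjusted p = 0.0611). Of 8 maintenance partners, 7 methyl-CpG readers, 12 deamination and base excision genes and 5 RNA cytosine methyltransferases (Trdmt1, once called Dnmt2, and Nsun genes), 0 passed in either direction. Without mutant replicate 3, 1 of the readers, Zbtb33, passed as higher. At an unadjusted p under 0.05 in limma these lists had 1, 0, 0 and 0 higher and 1 lower each, and their median log2 fold changes were 0.00, 0.18, -0.04 and -0.16. Cdca7, which recruits the remodeller Hells to hemimethylated DNA, differed by 0.99 on the log2 scale (adjusted p = 0.0820), and Hells itself 0.29 (adjusted p = 0.596).

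The last list holds 14 germline genes whose promoters are methylated in somatic tissues, where 1 rose and 1 fell (median log2 fold change -0.01). Taf7l, a germ cell relative of a TFIID subunit, read 5.49, 5.37 and 4.21 in the mutant, against 3.06, 3.28 and 3.62 in wild type (log2 fold change 1.70, SE 0.34, limma adjusted p = 0.0239). Mutant replicate 3 and all wild-type samples lay below the receptor-gene level, so the rise may be a lower bound. Tuba3a, a testis alpha-tubulin, averaged 7.91 ± 0.20 in the mutant and 8.72 ± 0.16 in wild type (log2 fold change -0.81, adjusted p = 0.0245). Its near-identical copy Tuba3b had -0.55 (adjusted p = 0.586), and whether either probe set reads both genes was not tested. Tuba3a lost its call with cyclic loess normalization (adjusted p = 0.0723). Taf7l held its call in 1 and Tuba3a in 2 of the 6 fits that left out 1 array. Without mutant replicate 3, 4 genes of this list rose and 1 fell, with Dazl, Sycp3 and Rpl10l joining Taf7l.

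**Figure D4:**
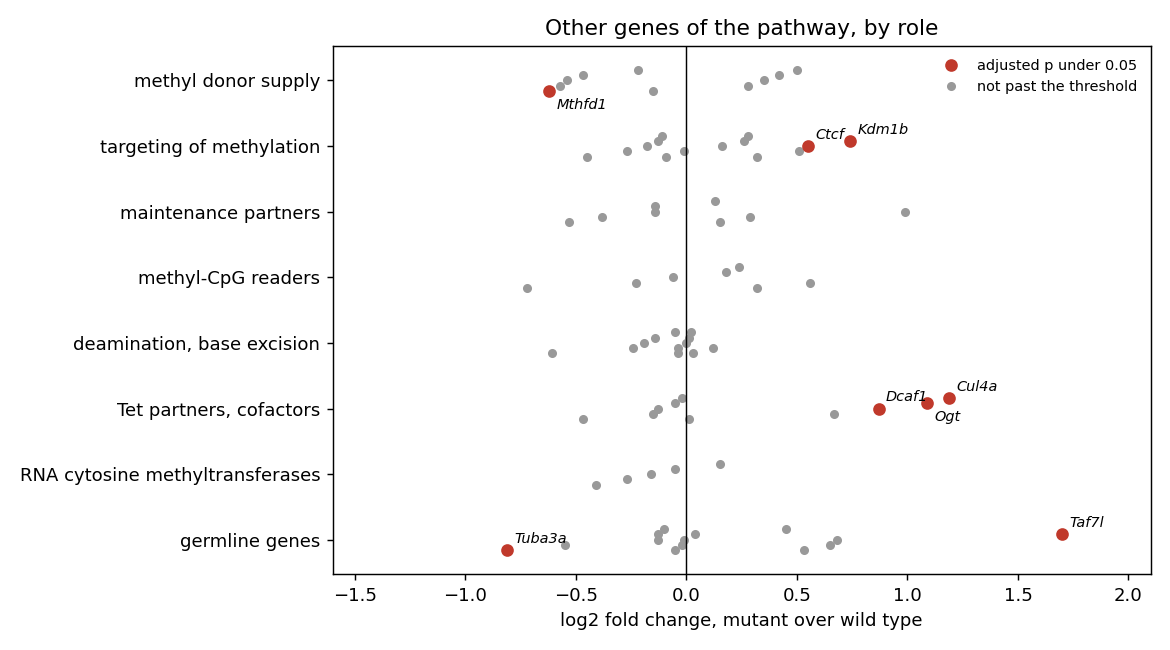
Log2 fold change, mutant over wild type (horizontal axis), of the 80 other listed genes in 8 lists by role (rows, with points spread vertically for legibility). The lists include RNA cytosine methyltransferases and germline genes methylated in somatic tissues. Red points passed an adjusted p under 0.05. Ogt, Dcaf1 and Cul4a stand together at 0.87 to 1.19, and Taf7l has the largest value, 1.70.

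Markers of other ovarian cells were measured beside these results. Of 18 cumulus and granulosa markers 2 rose and 0 fell, and their summed linear signal was 1470 to 1820 per mutant array, against 801 to 874 per wild-type array. Without Nr5a2 and Kitl, the genes that rose, the sum over 16 markers was 362 to 428 in the mutant and 378 to 440 in wild type. Of the 18 markers, 9 had a mean below the receptor-gene level in the mutant and 8 in wild type. Fshr and Amh were among them, at 4.24 and 4.07 in the mutant and 4.04 and 4.42 in wild type. Above the level in both genotypes were, among others, Foxl2 at 5.08 in the mutant and 5.14 in wild type, and Gja1 at 5.65 in the mutant and 5.59 in wild type. In the theca and stroma list 1 of 8 rose (Pdgfra), with sums of 176 to 215 in the mutant and 173 to 198 in wild type. Of 7 blood, immune and endothelial markers 1 fell (Pecam1), with sums of 173 to 217 in the mutant and 240 to 264 in wild type. Pecam1 was the brightest of the 7, at 6.20 in the mutant and 7.27 in wild type, so it weighs most in these sums. In each genotype 5 of the 7 had a mean below the receptor-gene level. The part of these cells in the results was not tested.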

How the data were processed

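The authors deposited log2 expression, 1 column per array, rounded to 2 decimals and made with GCOS, Affymetrix Expression Console 1.1 and RMA, per the submitters' processing notes. Gene coordinates come from RefSeq (GRCm38.p6), since a build for the array design was not given in the labels. Of 35556 probe sets, 21789 named 1 gene, 1621 several and 12146 were not named here. Entrez IDs of 21698 probe sets with 1 gene matched RefSeq. A gene with several probe sets was represented by that with the highest mean, a choice that a rise itself helps.

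Mutant and wild type were set against each other by lmFit and eBayes of limma 3.58.1 under R 4.3.3 (genotype only, two-sided, 3.65 prior degrees of freedom), with Benjamini-Hochberg adjustment over all probe sets and a threshold of 0.05. Intervals are limma's, unadjusted. The number of arrays limits the precision. Named besides the 10 genes were Marf1, up to 4 genes past the threshold per list and the 3 nearest profiles to that of Uhrf2; other genes were chosen after their values were seen. The genes, lists and tests were chosen with earlier results of these data known. On simulated arrays of this comparison with 35556 rows, 50 rows at each fold, 2% of 1.5-fold, 18% of 2-fold, 72% of 4-fold and 92% of 8-fold changes were recovered, with 3 false calls. The simulation changed a far smaller share of rows than the 10.4% of genes called in the data. Its adjustment was therefore stricter, and these percentages are not estimates of recovery in the data. Alternatives covered normalization, dim probe sets, variance model, array weights, replicate number and leaving out each array.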

Additional observations from a re-analysis of the deposited data

How the results depend on the processing

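Over 14 alternatives, 2 or 3 of the 10 genes passed the threshold, while the share of all genes that passed was 5.14% to 23.7%. It was 12.2% with quantile normalization, 10.4% with cyclic loess, 7.70% with median centring, 13.4% with array weights and 10.3% with the mean of a gene's probe sets. Uhrf2 and Tet2 passed in all 14, but Uhrf2 reached the level filter only through the mutant, so that fit says nothing about its stability. Dnmt1 joined them in the 2 named above. Of 140 changes of the 10 genes, 135 kept their direction and side of the threshold, 2 newly passed and 3 changed sign, none of these 3 past the threshold. The values that changed sign were 0.04 for Dnmt3l with cyclic loess normalization (adjusted p = 0.928), -0.03 for Tet1 with the mean of its probe sets (0.938) and -0.03 for Dppa3 without mutant replicate 2 (0.952), the lowest of -0.03 to 0.07 with 1 array left out. The count of the other listed genes was 8 (6 higher, 2 lower) with all arrays, 9 (9 and 0) with cyclic loess and 12 (9 and 3) with array weights. With 1 array left out it was 3 to 13. It was 3 without wild-type replicates 1 or 3 or mutant replicate 2, and 4 without wild-type replicate 2 or mutant replicate 1. These fits have fewer samples, and over all genes 5.14% to 10.2% passed in them. Without mutant replicate 3 it was 13, and the cause was not tested. With the replicate number as a block it was 4, and 2 of the 10 genes passed, against 7.18% of all genes. Samples with the same number did not deviate together (r = 0.147, -0.099 and 0.027 for numbers 1 to 3), so the numbers are not taken as pairs. The wild-type mean of Uhrf2 lies below the receptor-gene level and that of Tet2 just above it. Dim signal may limit their fold changes, which was not tested.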
